A study of Mus musculus with 23 samples.

Results

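The genes described here are 9 markers of type 1 conventional dendritic cells (cDC1): Xcr1, Clec9a, Cadm1, Naaa, Ppt1, Snx22, Gcsam, Wdfy4 and Cd24a. They were taken by gene symbol from among 19938 named genes, and 10 of the array's 28853 probe sets read them. Xcr1 was read by probe set 10597996, Clec9a by 10542181, Cadm1 by 10585048, Naaa by 10531370, Ppt1 by 10507784, Snx22 by 10594582, Gcsam by 10436024 and Cd24a by 10362896. Wdfy4 had the probe sets 10418848, which stands for the gene in every test, and 10418868. All 9 genes passed the filter on dim probe sets (a level above the array's median on 3 or more arrays) and so entered the test across 12157 genes.

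RNA came from spleens of mice labelled as Bcl6 conditional knockout (cKO) or wild type (WT), sorted into cDC1, type 2 conventional dendritic cells (cDC2) and plasmacytoid dendritic cells (pDC). Each sorted sample was hybridised to 1 Mouse Gene 1.0 ST array, with 4 arrays of cKO cDC1 and 3 of WT cDC1, 5 of cKO cDC2 and 3 of WT cDC2, and 5 of cKO pDC and 3 of WT pDC. No treatment separated the groups, and all spleens were digested in the same way. The Cre driver, the age and strain of the mice, the gates of the sort and whether the arrays of a group came from separate mice are not given in the sources used here. Whether the protein of a member was used to sort the cells is therefore not known.

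The cDC1 are the dendritic cells that take up material from dead cells and present it to CD8 T cells, a process called cross-presentation. The cDC2 are better known for presenting antigen to CD4 T cells, and pDC for making type I interferon. Bcl6 encodes a transcriptional repressor. The members cover 4 roles. Xcr1 and Clec9a are surface receptors, Cadm1 and Cd24a are surface molecules of adhesion and costimulation, Naaa and Ppt1 are lysosomal enzymes, and Snx22, Wdfy4 and Gcsam are cytoplasmic proteins of membrane traffic or signalling.

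RefSeq promoter windows on GRCm38.p6, each reaching from 250 bases before to 50 bases after a gene's start, were found for 7 of the 9 members (8 windows, since Snx22 has 2). Cadm1 and Cd24a were not among them. The windows of 4 members are printed, for these reasons. Xcr1 was the member whose array values were most fully set by cell type. Clec9a was the one called lower in cDC2 than in pDC in both genotypes. Naaa was the one called between genotypes, in cDC2 alone and not under every setting, and Ppt1 carried one of the motif matches. The window of Xcr1 lies at chr9:123861980-123862279 (minus strand), that of Clec9a at chr6:129408612-129408911 (plus strand), that of Naaa at chr5:92278132-92278431 (minus strand) and that of Ppt1 at chr4:122835977-122836276 (plus strand). All are given on the strand of the gene, with capitals for a match to the interferon response core.
Xcr1: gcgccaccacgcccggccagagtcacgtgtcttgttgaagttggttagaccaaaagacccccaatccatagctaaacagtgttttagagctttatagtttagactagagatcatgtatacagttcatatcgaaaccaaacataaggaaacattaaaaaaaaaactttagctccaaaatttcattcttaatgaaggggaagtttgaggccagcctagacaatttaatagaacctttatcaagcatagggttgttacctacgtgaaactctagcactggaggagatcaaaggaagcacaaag
Clec9a: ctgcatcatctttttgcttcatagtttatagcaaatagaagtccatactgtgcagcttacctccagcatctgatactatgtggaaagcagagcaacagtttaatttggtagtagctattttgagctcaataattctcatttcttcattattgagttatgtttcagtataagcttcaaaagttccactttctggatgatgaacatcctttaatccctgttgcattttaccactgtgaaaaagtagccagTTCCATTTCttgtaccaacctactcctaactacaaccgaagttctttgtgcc
Naaa: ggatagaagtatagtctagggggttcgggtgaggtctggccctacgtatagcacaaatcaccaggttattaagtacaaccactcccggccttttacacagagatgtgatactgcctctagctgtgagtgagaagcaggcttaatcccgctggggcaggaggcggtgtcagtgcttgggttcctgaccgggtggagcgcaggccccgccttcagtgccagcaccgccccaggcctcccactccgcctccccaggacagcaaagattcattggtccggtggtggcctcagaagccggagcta
Ppt1: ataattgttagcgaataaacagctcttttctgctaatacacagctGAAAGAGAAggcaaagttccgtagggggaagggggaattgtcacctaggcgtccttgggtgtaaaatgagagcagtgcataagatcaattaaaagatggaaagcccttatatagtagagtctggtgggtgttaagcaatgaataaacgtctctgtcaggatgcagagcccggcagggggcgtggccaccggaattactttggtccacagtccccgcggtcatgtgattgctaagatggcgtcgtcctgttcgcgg
Each window was searched on both strands for 4 motifs: AP-1 (TGACTCA), BCL6 (TTCCTNGAA), ETS-IRF (GGAANNGAA) and the interferon response core (GAAANNGAA). Only the last was found, in Ppt1 as GAAAGAGAA on the plus strand from base 46 of the window, and in Clec9a as TTCCATTTC, the minus-strand reading, from base 249. Of 32544 promoter windows of this length, 8.53% held that core, 8.22% the ETS-IRF letters, 5.19% the AP-1 letters and 1.60% the BCL6 letters. The ETS-IRF motif and the interferon core overlap in their letters. A match is a run of letters and says nothing of binding, and the absence of a match covers only these windows. GC content was 40.0% for Xcr1, 37.0% for Clec9a, 58.7% for Naaa and 48.7% for Ppt1.

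Some features of the whole series bear on the members. Array medians fell into 9 arrays at 38.9 to 41.2 intensity units and 14 arrays at 29.3 to 34.3, called high-median and low-median below. Every group held arrays of both kinds, and no label names them. Xist read a log2 level of 10.9 or more on the 3 WT arrays numbered 1 and 5.07 or less on all others. A single probe set read Bcl6, and if it sits outside what was deleted it is no check of the genotype. Bcl6 had a mean log2 level of 8.39 ± 0.29 in cKO cDC1 and 7.42 ± 0.61 in WT cDC1 (SD, n = 4 and 3), a log2 difference of 0.97 ± 0.35 (SE; limma adjusted p = 0.598). The cKO minus WT difference was 0.69 ± 0.33 in cDC2 (adjusted p = 0.756) and -0.15 ± 0.33 in pDC (adjusted p = 1). All directions therefore rest on the labels. The conventional dendritic cell markers Flt3, Zbtb46, Itgax and H2-Ab1 lay above the array median in all 6 groups.

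The first question was how far the members mark cDC1 among the sorted types. The members were chosen with earlier results of these data known. The counts below therefore describe them and are no independent check of the set's name. In cKO arrays 8 of the 9 members were higher in cDC1 than in cDC2, where 4% of all genes tested were called higher in cDC1, and 9 of 9 were higher in cDC1 than in pDC, where 12.5% were. In WT arrays 7 of 9 were higher in cDC1 than in cDC2 (3.02% of all genes) and 8 of 9 higher in cDC1 than in pDC (8.37%). The members' median log2 difference from cDC2 was 3.84 in cKO and 3.85 in WT, against 0.04 over all genes in both genotypes. The median from pDC was 3.06 in cKO and 3.08 in WT, against 0.05 over all genes. Both comparisons of a genotype share their cDC1 arrays. A call is a limma adjusted p below 0.05 (Benjamini-Hochberg over 12157 genes). The adjusted p of called members was 2.14e-04 or less against cDC2 and 0.00728 or less against pDC. The exceptions were Wdfy4 and Cd24a in WT cDC1 against WT cDC2, Cd24a in cKO cDC1 against cKO cDC2, and Cd24a in WT cDC1 against WT pDC.

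**Figure D1:**
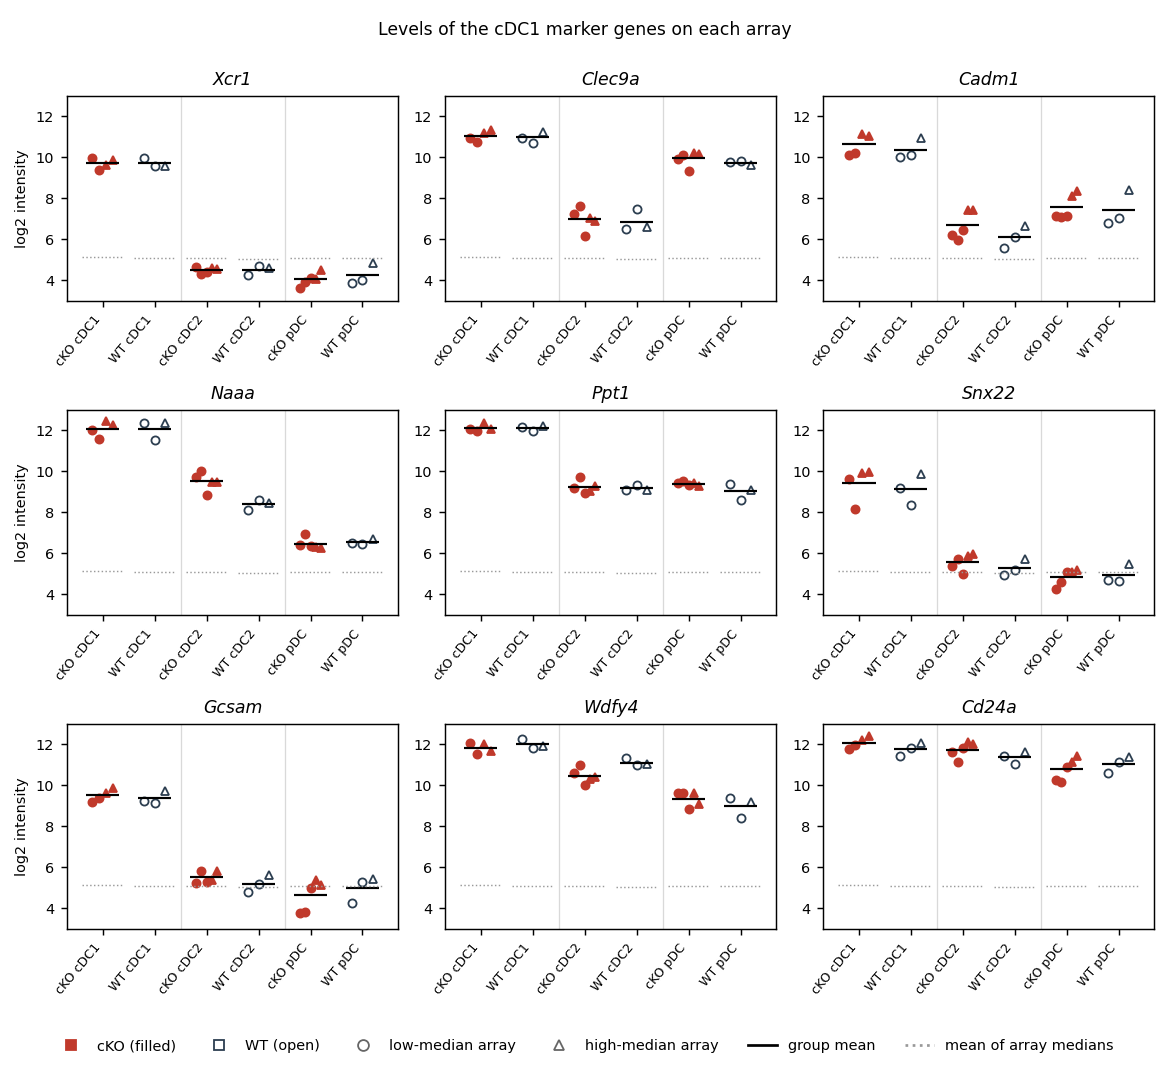
Log2 intensity (vertical axis) of each of the 9 genes on each of the 23 arrays, by cell type and genotype; filled red symbols are cKO arrays, open symbols WT arrays, triangles high-median and circles low-median arrays, solid bars group means and dotted lines the mean of the array medians. Xcr1, Snx22 and Gcsam fall to about the array median outside cDC1, Clec9a stays high in pDC, and Cd24a is high in all 6 groups.

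Xcr1 encodes the receptor for the chemokine XCL1 and is the surface receptor most closely tied to cDC1 in the mouse. Its log2 levels in cDC1 were 9.97, 9.39, 9.62 and 9.87 on the cKO arrays and 9.97, 9.55 and 9.58 on the WT arrays. In cDC2 they were 4.63, 4.29, 4.40, 4.61 and 4.57 in cKO and 4.25, 4.68 and 4.61 in WT. In pDC they were 3.64, 3.92, 4.10, 4.07 and 4.48 in cKO and 3.89, 4.01 and 4.84 in WT. Every cDC1 array stood far above every array of the other types, on which Xcr1 was below the array median throughout. The log2 difference between cDC1 and cDC2 was 5.21 ± 0.21 in cKO (SE, limma adjusted p = 3.34e-14; 37.0-fold) and 5.19 ± 0.25 in WT (adjusted p = 2.5e-12; 36.4-fold). Between cDC1 and pDC it was 5.67 ± 0.21 in cKO (50.8-fold) and 5.46 ± 0.25 in WT (43.9-fold). Since levels below the array median cannot be told from background, these folds have an uncertain size. In sorted bulk RNA, a few cells of another type and a low level in every cell cannot be told apart. The cDC2 and pDC were not called apart, with a log2 difference of 0.46 ± 0.19 in cKO (95% interval 0.06 to 0.86, adjusted p = 0.106) and 0.27 ± 0.25 in WT (adjusted p = 0.639), and their arrays overlapped. The cKO value passed with quantile normalization (adjusted p = 0.0264), array weights (0.00285), a term for high- or low-median arrays (the array-median term, 0.0422), the replicate number within genotype as a random block (0.0352) and without cKO pDC array 5 (0.0441). Cell type accounted for 99.0% of the variance of Xcr1 over the 23 arrays.

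Clec9a encodes a lectin receptor, also named DNGR-1, that binds actin filaments laid bare on dead cells and signals through the kinase Syk. Its log2 levels in cDC1 were 10.94, 10.74, 11.19 and 11.34 in cKO and 10.96, 10.71 and 11.24 in WT. In cDC2 the levels were 7.24, 7.60, 6.16, 7.06 and 6.90 in cKO and 6.51, 7.47 and 6.59 in WT. The pDC arrays read 9.92, 10.10, 9.35, 10.22 and 10.17 in cKO and 9.77, 9.81 and 9.63 in WT. The order was thus cDC1, then pDC, then cDC2, with no overlap between arrays of neighbouring types in either genotype. The log2 difference between cDC1 and pDC was 1.10 ± 0.26 in cKO (SE; 2.14-fold, limma adjusted p = 0.00261) and 1.24 ± 0.31 in WT (2.36-fold, adjusted p = 0.00728). Without the 3 WT arrays numbered 1 the WT value was 1.26 (adjusted p = 0.0555), so that call ended. Between cDC2 and pDC it was -2.96 ± 0.24 in cKO (7.77-fold lower in cDC2, adjusted p = 1.95e-09) and -2.88 ± 0.31 in WT (7.36-fold lower, adjusted p = 3.94e-07). Clec9a was the one member called lower in cDC2 than in pDC in both genotypes in this fit.

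Across all members, cDC2 and pDC gave 5 calls of 9 in cKO, 4 higher and 1 lower in cDC2, where 20.8% of all genes were called in either direction. In WT they gave 3 calls of 9, 2 higher and 1 lower in cDC2, where 12.7% were. Naaa and Wdfy4 were the 2 higher in both genotypes, and Gcsam and Cd24a were added in cKO. With quantile normalization, with a term for high-median arrays, or with the replicate number within genotype as a random block, the cKO count was 8, and the members added were Xcr1, Cadm1 and Snx22. The share of all genes called under those settings is not given here, so the count of 8 cannot be set against it. Xcr1 lay below the array median on every cDC2 and pDC array, and Snx22 was above it on 1 of the 5 cKO pDC arrays. Those 2 added calls thus compare levels near background.

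Cadm1 encodes an adhesion molecule of the nectin-like family that binds CRTAM on activated T cells. Log2 levels in cDC1 were 10.10, 10.23, 11.14 and 11.06 in cKO and 9.99, 10.10 and 10.94 in WT. In cDC2 they were 6.23, 5.98, 6.48, 7.42 and 7.45 in cKO and 5.59, 6.11 and 6.63 in WT. In pDC they were 7.12, 7.11, 7.16, 8.13 and 8.35 in cKO and 6.81, 7.03 and 8.42 in WT. The cDC1 arrays stood above all others, while within each group the high-median arrays read higher than the low-median ones. The log2 difference from cDC2 was 3.92 ± 0.39 in cKO (15.1-fold, adjusted p = 1.44e-07) and 4.23 ± 0.47 in WT (18.8-fold, adjusted p = 1.2e-06). Between cDC2 and pDC the log2 difference was -0.86 ± 0.37 in cKO (adjusted p = 0.109) and -1.31 ± 0.47 in WT (adjusted p = 0.0762). The WT value passed once the replicate number was a block over WT arrays alone (limma adjusted p = 0.00151), and without WT pDC array 1 (-1.61, adjusted p = 0.0493). It also passed with quantile normalization (adjusted p = 0.00448), array medians subtracted (0.0119) and an array-median term (5.58e-06). The cKO value passed under the same 3 settings (adjusted p = 0.0071, 0.0196 and 2.25e-05) and with the random block (0.00587).

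Cd24a encodes a small glycoprotein anchored in the membrane by lipid, known as heat-stable antigen and found on many blood cell lineages. Its log2 levels in cDC1 were 11.77, 11.97, 12.22 and 12.39 in cKO and 11.41, 11.80 and 12.04 in WT. In cDC2 they were 11.62, 11.11, 11.84, 12.11 and 12.02 in cKO and 11.45, 11.03 and 11.64 in WT. In pDC they were 10.27, 10.15, 10.90, 11.12 and 11.43 in cKO and 10.62, 11.13 and 11.38 in WT. The cDC1 and cDC2 arrays overlapped, and on every array Cd24a ranked above at least 96.5% of all probe sets. The log2 difference between cDC1 and cDC2 was 0.35 ± 0.26 in cKO (adjusted p = 0.634, 95% interval -0.20 to 0.89) and 0.38 ± 0.32 in WT (adjusted p = 0.812, -0.28 to 1.04). Between cDC1 and pDC it was 1.31 ± 0.26 in cKO (2.48-fold, adjusted p = 6.38e-04) and 0.71 ± 0.32 in WT (adjusted p = 0.178), and the WT value passed with the replicate block (adjusted p = 0.0285). Cell type accounted for 57.5% of its variance over the arrays, and for 89.3% to 99.0% in the other members. The WT cDC1 arrays also all lay above the WT pDC arrays. That WT difference further passed with array medians subtracted (limma adjusted p = 0.0146) and with the array-median term (0.0208). It passed as well with the replicate number within genotype as a random block (0.0214). In these sorted cells Cd24a thus parted cDC1 from pDC in cKO, and in WT under some settings only. It did not part cDC1 from cDC2 in either genotype.

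Ppt1 encodes a lysosomal thioesterase that removes palmitate from proteins and is lost in a human neuronal storage disease. Its mean log2 level was 12.12 ± 0.17 in cKO cDC1 and 12.11 ± 0.14 in WT cDC1 (SD, n = 4 and 3). The means were 9.23 ± 0.30 in cKO cDC2, 9.19 ± 0.14 in WT cDC2, 9.40 ± 0.09 in cKO pDC and 9.03 ± 0.41 in WT pDC. The cDC1 stood above both other types, which overlapped each other. The log2 difference from cDC2 was 2.89 ± 0.18 in cKO (7.42-fold, adjusted p = 7.13e-11) and 2.92 ± 0.22 in WT (7.57-fold, adjusted p = 2.13e-09). Even the lowest cDC2 or pDC array held Ppt1 above 91.5% of all probe sets, so this gene marked cDC1 by degree and not by presence.

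Snx22 encodes a sorting nexin, a class of proteins that bind phosphoinositides on endosomes. Its log2 levels ran from 8.17 to 9.97 in cKO cDC1 and from 8.38 to 9.85 in WT cDC1. They ran from 4.98 to 5.95 in cKO cDC2, 4.94 to 5.72 in WT cDC2, 4.26 to 5.20 in cKO pDC and 4.65 to 5.48 in WT pDC. In cDC1 the arrays numbered 2 were the lowest in both genotypes. Gcsam encodes an adaptor of receptor signalling and cell motility best known from germinal centre B cells. Its log2 levels ran from 9.20 to 9.88 in cKO cDC1 and from 9.13 to 9.74 in WT cDC1. Outside cDC1 they ran from 5.22 to 5.83 in cKO cDC2, 4.79 to 5.60 in WT cDC2, 3.79 to 5.39 in cKO pDC and 4.26 to 5.41 in WT pDC. Both genes thus fell to about the array median outside cDC1, as Xcr1 did. The log2 difference from cDC2 was 3.84 ± 0.35 in cKO (14.3-fold) and 3.85 ± 0.42 in WT (14.5-fold) for Snx22. It was 4.02 ± 0.31 in cKO (16.2-fold) and 4.18 ± 0.38 in WT (18.1-fold) for Gcsam, and the lower levels make the size of these folds uncertain. Between cDC2 and pDC, Gcsam had a log2 difference of 0.88 ± 0.30 in cKO (adjusted p = 0.0358), which lost its call without cKO pDC array 1 (0.67, adjusted p = 0.132) or array 2 (0.68, adjusted p = 0.126) and without cKO cDC2 array 2 (adjusted p = 0.0868), array 4 (0.0504) or array 5 (0.0902). The call also ended with no filter (adjusted p = 0.0546) and with only the groups compared (0.065). The difference was 0.35 within the high-median and 1.24 within the low-median arrays.

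Wdfy4 encodes a large BEACH-domain protein that mouse cDC1 need to cross-present antigen from cells. Its log2 levels in cDC1 were 12.04, 11.55, 12.00 and 11.68 in cKO and 12.27, 11.83 and 11.93 in WT. In cDC2 they were 10.59, 10.99, 9.99, 10.31 and 10.42 in cKO and 11.31, 10.97 and 11.04 in WT. In pDC they were 9.61, 9.61, 8.87, 9.62 and 9.09 in cKO and 9.36, 8.40 and 9.20 in WT. The order was cDC1, cDC2, pDC, with no overlap between the types in either genotype. The log2 difference between cDC1 and cDC2 was 1.36 ± 0.23 in cKO (2.56-fold, limma adjusted p = 2.14e-04) and 0.90 ± 0.28 in WT (1.87-fold, adjusted p = 0.0582). The WT value passed with the replicate block (limma adjusted p = 0.0134), array weights (0.013), the array-median term (0.0352) and the random block (0.0069). It also passed with each of 4 single arrays left out. They were cKO cDC2 array 2 (0.0450), cKO cDC2 array 3 (0.0496), WT pDC array 2 (0.0312) and cKO pDC array 3 (0.0438). The second Wdfy4 probe set gave 1.29 ± 0.46 in cKO and 1.02 ± 0.56 in WT, with overlapping arrays.

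Naaa encodes the lysosomal amidase that breaks down palmitoylethanolamide, a lipid mediator. Its log2 levels in cDC1 were 12.01, 11.60, 12.45 and 12.26 in cKO and 12.37, 11.53 and 12.35 in WT. In cDC2 they were 9.73, 10.02, 8.86, 9.46 and 9.46 in cKO and 8.13, 8.62 and 8.47 in WT. In pDC they were 6.38, 6.93, 6.36, 6.31 and 6.25 in cKO and 6.52, 6.45 and 6.70 in WT. The 3 types were fully apart in both genotypes, with cDC2 in between. The log2 difference between cDC1 and cDC2 was 2.57 ± 0.23 in cKO (5.94-fold, adjusted p = 3.71e-08) and 3.68 ± 0.29 in WT (12.8-fold, adjusted p = 4.1e-09). Between cDC1 and pDC it was 5.63 ± 0.23 in cKO (49.6-fold) and 5.53 ± 0.29 in WT (46.1-fold).

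**Figure D2:**
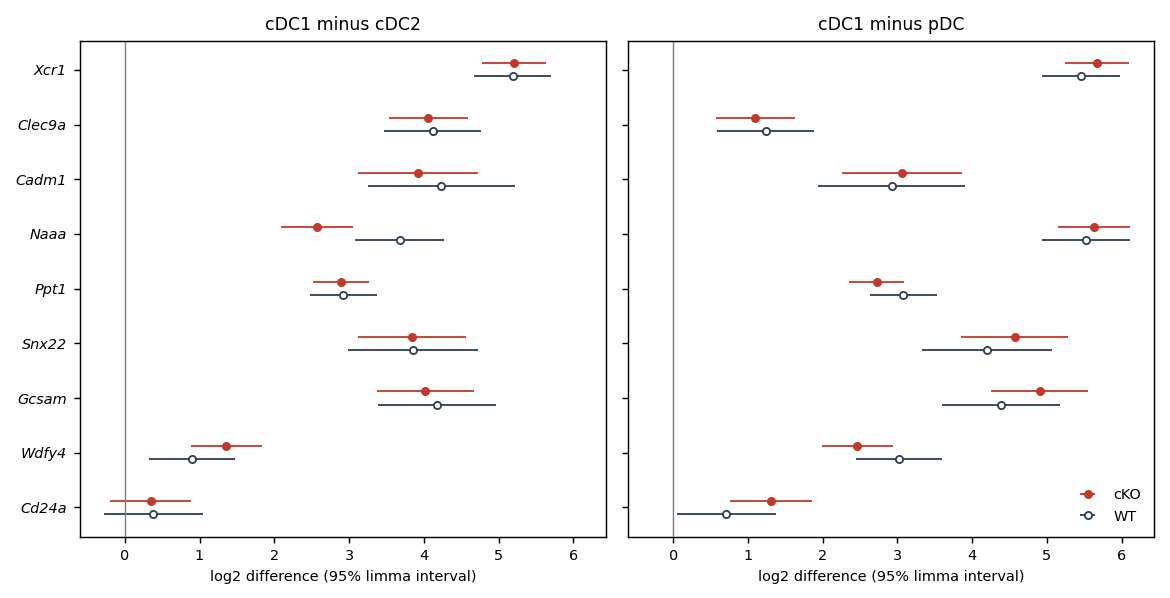
Log2 difference of each gene between cDC1 and cDC2 (left) and between cDC1 and pDC (right), with 95% limma intervals; filled red points are cKO arrays (n = 4 cDC1 against 5) and open points WT arrays (n = 3 against 3). Clec9a is far from 0 against cDC2 (4.06 in cKO, 4.12 in WT) and near 1 against pDC, and the Cd24a intervals against cDC2 include 0.

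The second question was how the markers compared between cKO and WT within each cell type. In cDC1, limma called 0 of 9 members, where 0.831% of all genes were called, and 0 had an unadjusted p below 0.05. Log2 differences ran from -0.19 for Wdfy4 to 0.34 for Cd24a, with a median of 0.08 against 0.06 over all genes. Xcr1 differed by 0.01 ± 0.23 (SE; 95% interval -0.48 to 0.49), Naaa by 0.00 ± 0.27 (-0.56 to 0.55), Ppt1 by 0.01 ± 0.20 (-0.41 to 0.43) and Clec9a by 0.08 ± 0.29 (-0.52 to 0.68). The intervals of Cadm1 (-0.63 to 1.21), Snx22 (-0.53 to 1.10) and Cd24a (-0.28 to 0.96) were wider on the upper side. Those of Gcsam (-0.58 to 0.90) and Wdfy4 (-0.73 to 0.35) also included 0. Within the high-median and the low-median arrays the difference was 0.17 and 0.12 for Cadm1, and 0.09 and 0.12 for Snx22. A replicate block over the cDC1 arrays also called 0 members. On the same arrays 3 of 7 listed cDC2 markers rose in cKO cDC1, namely Cd209a (by 3.20 ± 0.26), Sirpa (2.27 ± 0.41) and Itgam (2.14 ± 0.28). The B cell marker Cd22 (1 of 4) and the red pulp macrophage marker Adgre1 (1 of 5) rose as well. The other listed cDC2 markers were not called. Their mean log2 levels in cKO and WT cDC1 were 2.92 and 3.13 for Clec4a4, 5.36 and 5.40 for Irf4, 5.93 and 5.94 for Dtx1, and 5.39 and 5.11 for Esam. The mean log2 distance of the whole cDC2 list above the array median was 1.18 to 1.27 on the cKO cDC1 arrays. It was 0.02 to 0.45 on the WT cDC1 arrays.

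In cDC2, Naaa was higher in cKO, 1 of 9 members, where 1.56% of all genes were called. All 5 cKO cDC2 arrays (8.86 to 10.02) lay above all 3 WT cDC2 arrays (8.13 to 8.62). The mean log2 level was 9.51 ± 0.43 in cKO cDC2 and 8.41 ± 0.25 in WT cDC2 (SD, n = 5 and 3), a difference of 1.10 ± 0.26 (SE; 2.15-fold, limma adjusted p = 0.0247). It was 0.99 within the high-median arrays and 1.16 within the low-median arrays. The cKO cDC2 level stayed below that of every cDC1 array, the lowest of which read 11.53. The call was not stable. It ended without WT cDC2 array 1 (difference 0.96, adjusted p = 0.183) or array 3 (1.13, 0.0787), without cKO cDC2 array 1 (1.05, 0.0609) or array 2 (0.97, 0.0745), with array medians subtracted (1.06, 0.0565), with only the cDC2 arrays fitted (0.0859) and with the replicate number within genotype as a random block (0.0966). The difference itself ran from 0.96 to 1.26 over the 23 fits that left out 1 array.

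The T cell markers Cd3d, Cd3e and Cd3g had higher mean levels in cKO than in WT cDC2, though none was called. Whether they varied together with Naaa was not tested. Their mean log2 distance above the array median was 1.54 to 2.58 on the cKO cDC2 arrays and 0.54 to 0.89 on the WT cDC2 arrays, with 0 of 3 called and 3 of 3 under an unadjusted p of 0.05. The list of 5 further cDC1 markers (Tlr3, Itgae, Batf3, Irf8 and Cd8a) stood at 1.69 to 2.39 on the cKO cDC2 arrays and 1.37 to 1.75 on the WT cDC2 arrays, with 0 of 5 called and 0 of 5 under an unadjusted p of 0.05. In WT cDC2, Cd8a and Itgae of that list were at or below the array median, and in cKO cDC2 none was. Of the cDC2 markers, Cd209a and Itgam rose and Clec4a4 and Dtx1 fell in cKO cDC2. Limma called 0 of 4 B cell and 0 of 5 red pulp macrophage markers there, with Ms4a1 (-1.51 ± 0.49), Cd22 (-0.67 ± 0.26) and Spic (1.16 ± 0.35) under an unadjusted p of 0.05. It called 0 of 4 conventional dendritic cell, 0 of 8 pDC, 0 of 2 NK cell, 0 of 2 erythroid and platelet and 0 of 3 neutrophil and monocyte markers between cKO and WT cDC2, with 0, 2, 1, 0 and 0 under an unadjusted p of 0.05. The part of other cells in the Naaa difference was not tested. Xcr1, the member most closely tied to cDC1, differed by -0.02 ± 0.22 in cDC2 (95% interval -0.48 to 0.45) and stayed below the array median on all 5 cKO cDC2 arrays.

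The other members were not called in cDC2. Wdfy4 had a mean log2 level of 10.46 ± 0.37 in cKO cDC2 and 11.11 ± 0.18 in WT cDC2, a difference of -0.65 ± 0.25 (adjusted p = 0.421) that was -0.67 within the high-median and -0.62 within the low-median arrays. Its arrays overlapped between the genotypes, and the second probe set gave -0.52 ± 0.50. Cadm1 differed by 0.60 ± 0.42, Cd24a by 0.37 ± 0.29, Gcsam by 0.31 ± 0.34, Snx22 by 0.30 ± 0.38, Clec9a by 0.14 ± 0.28 and Ppt1 by 0.04 ± 0.19, each with an adjusted p of 1. The median of the 9 log2 differences was 0.30, against 0.07 over all genes.

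In pDC, limma called 0 of 9 members, where 0.0329% of all genes were called, and 0 had an unadjusted p below 0.05. Log2 differences ran from -0.36 for Gcsam to 0.37 for Wdfy4. Clec9a, called higher in pDC than in cDC2 in both genotypes, differed by 0.22 ± 0.28 (95% interval -0.36 to 0.79). Ppt1 differed by 0.37 ± 0.19 (-0.03 to 0.77). No member thus separated cKO pDC from WT pDC.

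**Figure D3:**
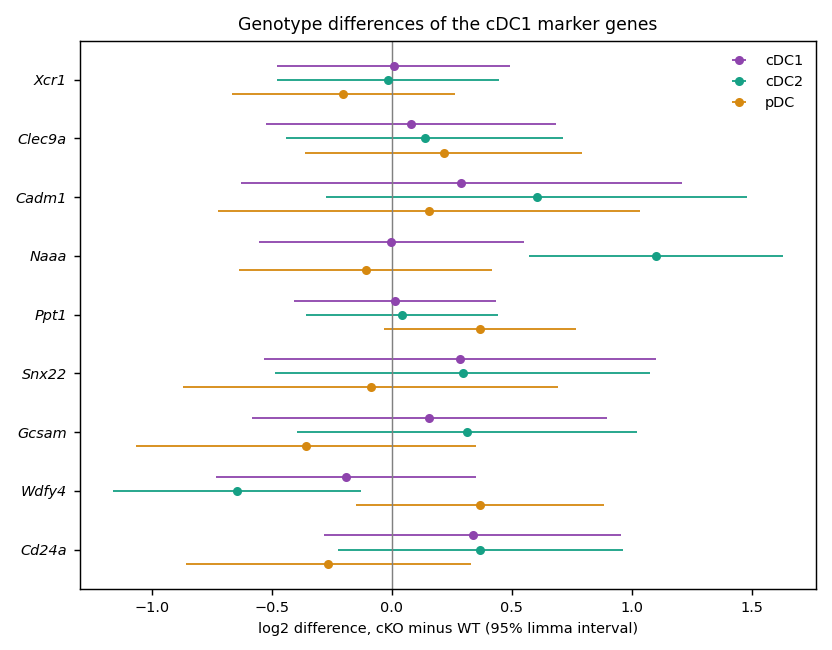
Log2 difference between cKO and WT (horizontal axis, cKO minus WT) for each gene in cDC1, cDC2 and pDC, with 95% limma intervals (n = 4 against 3, 5 against 3 and 5 against 3 arrays). Naaa in cDC2 (1.10) is the one difference called over all genes; the interval of Wdfy4 in cDC2 (-1.16 to -0.13) also leaves out 0, with an adjusted p of 0.421.

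Whether the genotype differences differed between cell types was tested directly. Limma called 0 of 9 members for the cDC1 effect minus the cDC2 effect, where 0.28% of all genes were called, and 1 member had an unadjusted p below 0.05. For the cDC1 effect minus the pDC effect it called 0 of 9 (0.329% of all genes), and 0 had such a p. For the cDC2 effect minus the pDC effect it called 0 of 9 (0.485% of all genes), and 2 had such a p. Naaa had -1.10 ± 0.37 for cDC1 minus cDC2 (adjusted p = 0.561) and 1.21 ± 0.36 for cDC2 minus pDC (adjusted p = 0.293). Wdfy4 had -1.01 ± 0.35 for cDC2 minus pDC (adjusted p = 0.549). The rise of Naaa in cDC2 is therefore not shown to differ from its difference in the other types.

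Beyond the members, 20 other genes known from cDC1 were followed, of which 19 were tested. They were lineage-like in WT, with 18 of 19 higher in cDC1 than in cDC2 (3.02% of all genes) and 17 of 19 higher than in pDC (8.37% of all genes). In cKO cDC1 limma called 0 of 19 against WT cDC1, where 0.831% of all genes were called, with a median log2 difference of -0.01. A replicate block over cDC1 arrays alone, treated as paired by number, called Septin3 (0.90, limma adjusted p = 0.0433). That pairing was inferred from these arrays and is not stated by the labels. An unadjusted p below 0.05 was reached by 5, namely Tlr12 (1.0 ± 0.27), Septin3 (0.99 ± 0.31), Htr7 (0.73 ± 0.28), Cd36 (0.65 ± 0.28) and Cd8a (-0.65 ± 0.25). In cKO cDC2 4 of 19 rose and 0 fell, where 1.56% of all genes were called, with a median log2 difference of 0.55 against 0.07 over all genes and 18 of 19 above 0. Cd36, a scavenger receptor, had mean log2 levels of 5.89 ± 0.39 in cKO cDC2 and 4.33 ± 0.53 in WT cDC2, a difference of 1.56 ± 0.27 (SE; limma adjusted p = 0.00141). Its WT cDC2 mean lay below that of the array medians (5.06), so the size of this difference is uncertain. Septin3, a cytoskeletal GTPase, rose by 1.47 ± 0.29 (adjusted p = 0.00606) to 6.82 ± 0.39 in cKO cDC2, against 5.34 ± 0.68 in WT cDC2. Hepacam2, an adhesion protein of the immunoglobulin superfamily, rose by 1.28 ± 0.23 (adjusted p = 0.00232) to 6.84 ± 0.31 in cKO cDC2, against 5.56 ± 0.14 in WT cDC2. Rab7b, a small GTPase of late endosomes, rose by 0.93 ± 0.23 (adjusted p = 0.0364) to 7.15 ± 0.28 in cKO cDC2, against 6.22 ± 0.34 in WT cDC2. For all 4 genes the cKO cDC2 arrays lay above the WT cDC2 arrays and below every cDC1 array. The list is no independent evidence, since it was chosen with earlier results of these data known.

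Within the high-median and the low-median arrays, the cDC2 difference was 1.35 and 1.60 for Cd36, 0.98 and 1.70 for Septin3, 1.23 and 1.28 for Hepacam2, and 1.43 and 0.64 for Rab7b. Cd36 and Hepacam2 stayed called in each of the 23 fits without 1 array. Septin3 lost its call without WT cDC2 array 1 (1.10, adjusted p = 0.115). Rab7b lost it there too (0.90, adjusted p = 0.162) and without WT cDC2 array 3 (0.77, adjusted p = 0.271) or cKO cDC2 array 2 (adjusted p = 0.0929), array 4 (0.0948) or array 5 (0.0956). With only the cDC2 arrays fitted, Septin3 (adjusted p = 0.0502) and Rab7b (0.113) were not called, and Rab7b was not called with the random block (0.0626). In pDC limma called 0 of the 19, where 0.0329% of all genes were called, with a median log2 difference of -0.08 and 0 under an unadjusted p of 0.05. The cDC2 effect exceeded the pDC effect for 2 of the 19, where 0.485% of all genes differed, Cd36 (by 2.03 ± 0.38, limma adjusted p = 0.00832) and Hepacam2 (1.5 ± 0.33, adjusted p = 0.0335). In pDC the mean log2 levels were 4.80 in cKO and 5.27 in WT for Cd36, and 4.12 and 4.33 for Hepacam2. The array medians averaged 5.11 in both pDC groups. The pDC levels of both genes were thus near or below the array median, and the size of these 2 differences is uncertain. The cDC1 and cDC2 effects differed for 0 of the 19 by limma, where 0.28% of all genes differed, with 5 under an unadjusted p of 0.05. The T cell marker values given beside Naaa apply here as well, and their part in these differences was not tested.

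**Figure D4:**
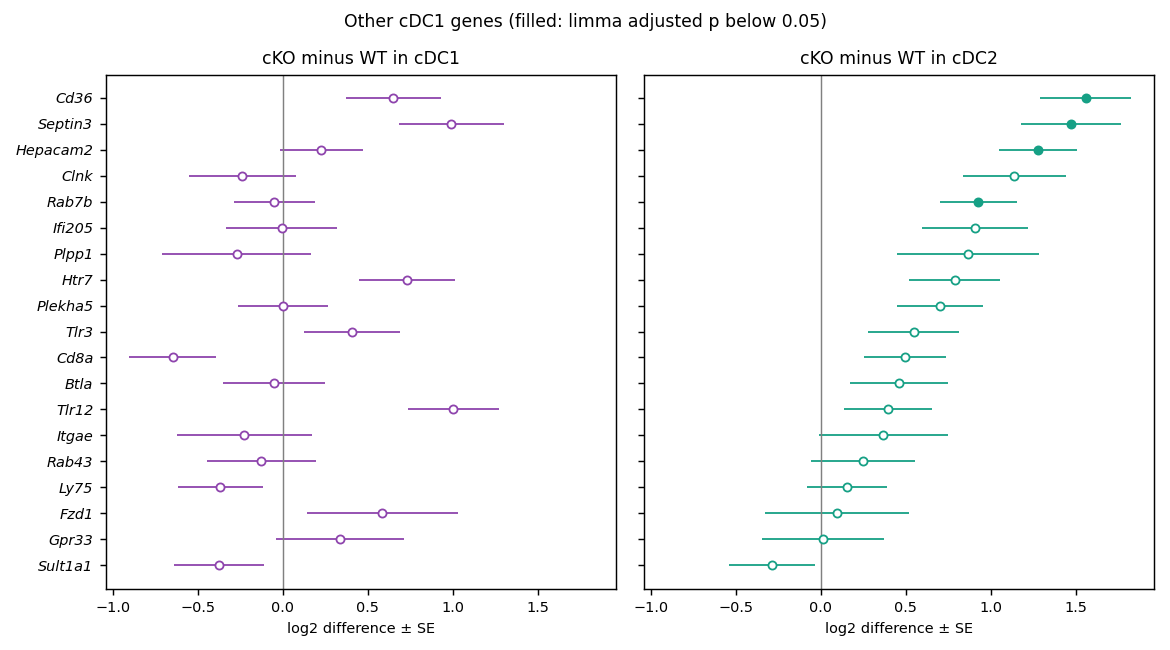
Log2 difference between cKO and WT (horizontal axis, cKO minus WT, bars ± SE) for the 19 other cDC1 genes in cDC1 (left, n = 4 against 3) and cDC2 (right, n = 5 against 3), ordered by the cDC2 value; filled points passed limma at an adjusted p below 0.05. In cDC2 all but Sult1a1 lie above 0 and Cd36, Septin3, Hepacam2 and Rab7b are filled; in cDC1 9 of 19 lie above 0 and none is filled.

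Relatives of the members by family gave no call by genotype. Between cKO and WT, limma called 0 genes in cDC1, cDC2 or pDC among the 3 tested binding partners, the 13 tested fatty acyl amide and lysosomal relatives of Naaa and Ppt1, the 8 BEACH-domain relatives of Wdfy4, the 27 other sorting nexins and the 4 nectin-like relatives of Cadm1. An unadjusted p below 0.05 was reached by 3 of these genes in cDC1, 5 in cDC2 and 2 in pDC, which are named here after their values were seen. The share of all genes under that p is not given here. The counts and the values below therefore describe single genes and are no result about the relatives. In cDC1 they were the lysosomal peptidase Tpp1 (0.93 ± 0.28), Siglecg, a lectin that binds CD24 (0.46 ± 0.22), and Nectin4 (0.35 ± 0.16). In cDC2 they were the BEACH-domain genes Lrba (-0.82 ± 0.27), Wdfy3 (0.66 ± 0.27) and Lyst (-0.66 ± 0.31) and the sorting nexins Snx20 (-0.64 ± 0.26) and Snx18 (0.51 ± 0.24). In pDC they were Lyst (0.83 ± 0.31) and Wdfy3 (-0.80 ± 0.27). Called higher in WT cDC1 than in WT cDC2, where 3.02% of all genes were, were 5 of these relatives, namely Ppt2 (2.10 ± 0.50), the other palmitoyl thioesterase, Asah2 (1.21 ± 0.29), Wdfy3 (1.45 ± 0.30), Snx24 (1.33 ± 0.22) and Snx2 (1.04 ± 0.27). Called lower, where 369 of all 12157 genes were, were Tpp1 (-1.05 ± 0.30), Lyst (-1.43 ± 0.34), Snx18 (-0.97 ± 0.26), Cadm3 (-2.10 ± 0.35) and Siglecg (-1.98 ± 0.24). The same contrast called 7 of the 9 members higher and 0 lower. The members were chosen as cDC1 markers with earlier results of these data known, so these counts do not test members against relatives.

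The genes whose levels ran closest to each member over the 23 arrays were found by Pearson's r, as a description. The arrays share 3 cell types, so r reflects mainly the differences between types. They were P3h2 (0.99), Fndc7 (0.99) and Fam149a (0.99) for Xcr1, and Cd8a (0.94), Tmem140 (0.94) and Glce (0.93) for Clec9a. For Cadm1 they were Ttc39a (0.97), Slco3a1 (0.96) and Txndc15 (0.96), and for Naaa Hepacam2 (0.98), Acvrl1 (0.97) and Cxcl9 (0.97). Ppt1 ran with Gpr141b (0.98), P3h2 (0.97) and Xcr1 (0.97), and Wdfy4 with Anxa6 (0.97), Cdk14 (0.96) and Pstpip2 (0.96). Snx22 had Lima1, Gcsam and Xcr1 (0.98 each), and Gcsam had Itga8, Xcr1 and Snx22 (0.98 each), so these 2 members were near each other and near Xcr1. Cd24a had the lowest values, with Cmc2 (0.93), Zadh2 (0.93) and Myl12a (0.93).

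Within groups the members parted by array median. The mean deviation from the group mean was 0.65 on the high-median and -0.42 on the low-median arrays for Cadm1, 0.44 and -0.28 for Snx22, 0.34 and -0.22 for Gcsam and 0.33 and -0.21 for Cd24a. It was 0.14 and -0.09 for Xcr1, 0.09 and -0.06 for Clec9a, 0.07 and -0.04 for Naaa, 0.01 and 0.00 for Ppt1 and -0.01 and 0.01 for Wdfy4. The 6 groups accounted for 90.5% of the variance of Cadm1 and for 99.2% with a term for the array median added, and for 64.9% and 85.9% of that of Cd24a. For Ppt1 and Wdfy4 the term added nothing at this rounding (97.9% and 93.6%). These splits were seen after the data were examined, and each group held arrays of both kinds.

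**Figure D5:**
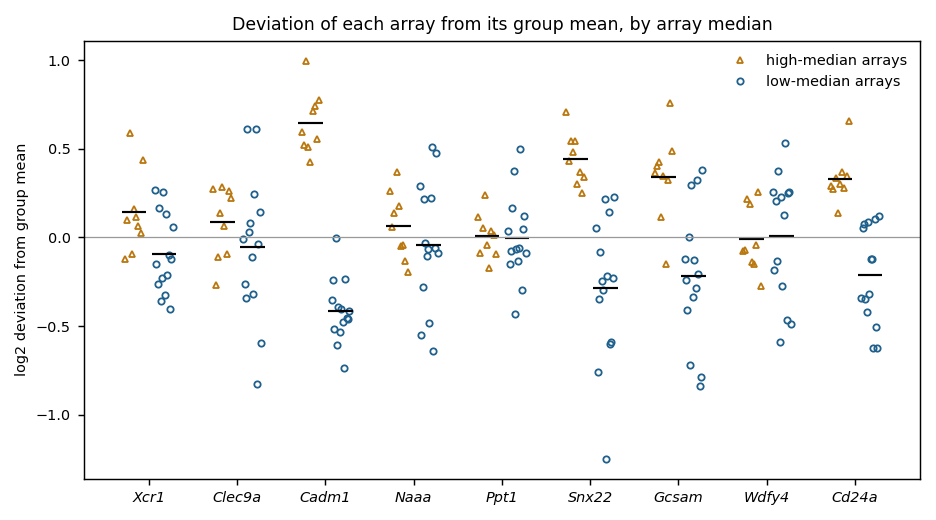
Deviation of each of the 23 arrays from its group mean (vertical axis, log2 units) for each gene; orange triangles are the 9 high-median arrays, blue circles the 14 low-median arrays and bars the means of each. All 9 high-median arrays lie above all low-median arrays for Cadm1, while for Ppt1 and Wdfy4 the 2 kinds overlap around 0.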

How the data were processed

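RNA of sorted spleen cells was read on 23 Affymetrix Mouse Gene 1.0 ST arrays, after digestion with collagenase B and DNase I and labelling with the WT Pico kit, per the labels' protocols. The intensity values were deposited by the authors after RMA in Expression Console, per the submitters' processing notes, with versions not given in the sources used here. They lay between 3.785 and 13980.744, a linear range, and log2 of the deposited values was used throughout.

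Of 28853 probe sets, 21789 named 1 gene, 1621 several and 5443 none in the platform annotation, and 21698 of the first kind matched RefSeq by Entrez identifier. Probe sets above the array median on at least 3 arrays were kept, and the one with the highest mean stood for a gene with several (696 genes), which left 12157 genes. All 23 arrays entered 1 limma fit (version 3.58.1, R 4.3.3, with the data.table package, 1.17.8, and plots by matplotlib, 3.10.9) with a mean for each of 6 groups and 17 residual degrees of freedom. Tests were two-sided, adjusted by Benjamini-Hochberg over those genes, and called below 0.05. The method was tested on simulated data. Errors of differences are standard errors, those of levels standard deviations. Separate animals are not stated, so a p-value covers only how these samples vary, which may be technical. Precision is limited by the number of arrays.

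At most 2436 values were equal between any 2 arrays, and arrays of a group correlated at 0.944 to 0.995. Replicate numbers come from the labels' titles. Same-numbered arrays deviated together from their group means in cDC1 (cKO with WT, r of 0.439 to 0.537) and between the WT cell types (r of 0.378 to 0.704), and were treated as paired there. In each other comparison at least 1 pair had an r of 0.1 or less. Alternatives were quantile normalization, subtracted array medians, other filters, an intensity trend, array weights, terms for array median and replicate number, smaller sample sets and every array left out in turn. The replicate blocks over paired groups alone were added after seeing the data.

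The members and lists were chosen with earlier results of these data known. Named genes are the members, Bcl6, the 3 nearest genes by r, and called genes of the lists, unless said otherwise. Lists covered other cDC1 genes, binding partners, family relatives and markers of conventional dendritic cells, cDC1, cDC2, pDC, B cells, T cells, NK cells, erythroid cells and platelets, neutrophils and monocytes, and red pulp macrophages.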

Additional observations from a re-analysis of the deposited data

Results flagged for a closer look

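Naaa on cKO pDC array 2 read a log2 level of 6.93, while the next highest of the 5 cKO pDC arrays read 6.38. The gap to that neighbour took 0.802 of the group's whole range, above the Dixon limit for 5 values. It was the only such value among 30 sets of 4 or 5 arrays examined over the 10 member probe sets, and chance flags about 1 in 20. Naaa was not called between cKO and WT pDC with all arrays, nor in any fit that left out 1 array.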

How the results depend on the processing

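Outside the comparisons within a single kind of array, no result changed direction under any alternative fit. An uncalled difference smaller than its own SE was given no direction. Within the high-median arrays, 1 for each WT group, Xcr1 differed by -0.22 between WT cDC2 and WT pDC. Over all arrays that difference was 0.27 ± 0.25 and not called, so its direction was reversed there. Of the counts of members called, 422 under the alternatives stayed within 1.5 times the count reported, 3 were above and 8 below. For cKO against WT in cDC2 the count of 1 (Naaa) became 0 with array medians subtracted, with the replicate number within genotype as a random block, with only the groups compared and without the 3 WT arrays numbered 1, where Naaa differed by 0.96 (adjusted p = 0.209). It ran from 0 to 1 when single arrays were left out. For cDC2 against pDC in cKO the count of 5 became 8 with quantile normalization, with the array-median term and with the random block. The share of all genes called under those settings is not given here. The cause of these changes in the counts was not tested. Of the members' own differences, 4043 kept their side of the threshold, 42 gained a call, 16 lost one and 12 moved by more than the residual SD within one kind of array. Leaving out single arrays gave counts of 8 in cKO and 7 to 8 in WT for cDC1 against cDC2, 9 in cKO and 8 in WT for cDC1 against pDC, and 4 to 6 in cKO and 3 to 4 in WT for cDC2 against pDC.

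Among the other cDC1 genes, the count of 4 called in cDC2 became 2 without WT cDC2 array 1, also when all 3 WT arrays numbered 1 were left out, and the range without single arrays was 2 to 5. In cDC1 the count of 0 became 1 with quantile normalization (Tlr12, adjusted p = 0.0392), 4 with array weights (Tlr12, Septin3, Htr7 and Cd36) and 1 with a replicate block over cDC1 arrays alone (Septin3, adjusted p = 0.0433). With the replicate number as a block over all arrays, Naaa differed by 1.14 between cKO and WT cDC2 (adjusted p = 0.0383), where the arrays share only a number. Rab7b did not pass that replicate block (0.74, adjusted p = 0.0604) or the trend and robust prior (adjusted p = 0.0506). A replicate block over WT arrays alone, where the numbers pair the arrays, raised the all-gene totals of calls to 1459 for cDC1 against cDC2, 3034 for cDC1 against pDC and 2869 for cDC2 against pDC, against 736, 1643 and 1548. It changed the calls of Wdfy4, Cd24a and Cadm1 given above and no other member's. Rescaling moved the median of all genes by at most 0.09 log2 units. Depth does not apply to arrays; levels at or below the array median limit the folds of Xcr1, Snx22 and Gcsam.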
